A study of Saccharomyces cerevisiae with 50 samples.

Results

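The comparison set yox1 deletion cells of budding yeast (Saccharomyces cerevisiae) just after the mating pheromone alpha factor was removed against yox1 deletion cells sampled 15 and 20 min after its removal. Its members were the arrays whose labels give a sampling time of 0 or 5 min, called the arrest arrays, and those of 15 or 20 min, called the late arrays. A further array has a source name that gives 0 min but a title that gives a later time. It was placed at the later time, so it is in neither group. This gave 4 arrays in each group, 8 of the 50 arrays of the series, with each of the 4 time points hybridised in both of 2 array sets. Every sample carried the yox1 deletion and had been arrested with alpha factor and released into the rich medium YEPD, per the labels. Its RNA was labelled with Cy5 and hybridised beside Cy3-labelled RNA from wild-type cells growing asynchronously in YEPD. Strain background and mating type, the number of cultures and how the deletion was made were not given in the sources used here.

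Alpha factor binds the receptor Ste2 on a cells and releases the G protein subunits Ste4 and Ste18 from Gpa1. A kinase cascade then activates the transcription factor Ste12, which raises the genes of cell adhesion and fusion, while Far1 holds the Cln-Cdc28 kinase in check before Start, the commitment point of G1. After release, cells that pass Start activate the transcription factors SBF (Swi4 and Swi6) and MBF (Mbp1 and Swi6). SBF targets serve budding and cell wall growth and include the G1 cyclins CLN1 and CLN2, and MBF targets serve DNA replication. Yox1 is a repressor that acts with Mcm1 at promoters of the transition from M to G1. The series as analysed here holds no time course of wild-type cells, and nothing below compares the deletion with wild-type cells passing Start.

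Values are log2 ratios of a time point's RNA to the reference, centred on each array's median, and in lists of 8 values array set 1 comes first. The deposited scale was inferred to be log10 and the direction of the ratio was taken from the dyes, so all log2 sizes and signs depend on these readings. The 8 arrays measured 5752 to 6092 of 6205 open reading frames each, and their number sets the precision. The design text calls repeats of a time point technical, so both arrays of 1 time were averaged and the groups hold 2 time points each. Genes are not independent replicates. Across them, Pearson's r was 0.789 to 0.839 between arrays of a time point, 0.645 to 0.891 between other arrays of a group and 0.223 to 0.801 between groups. In set 2 the titles of 0, 5 and 15 min carry the letter M and 1 date, whereas 20 min has another date. The sets differed gene by gene in a stable way: the deviation of set 1 from the group mean correlated between arrest and late arrays with r = 0.759 across genes. That difference cancels where both arrays of a time point are measured, but not where 1 is missing, as for 184 of the called genes.

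Values of the deleted gene and of mating-type genes are given first, but they cannot check the deletion or the mating type. The histone gene HTA2 also lay below the asynchronous reference on 8 of 8 arrays, and the mating type of the reference is not given. YOX1, the deleted gene, lay below the reference on 8 of 8 arrays, with -1.89 and -1.63 at 0 min, -2.25 and -1.66 at 5 min, -1.46 and -1.55 at 15 min, and -0.68 and -0.34 at 20 min. It was closest to the reference at 20 min and passed as higher by 0.85 ± 0.28 (SE, limma adjusted p = 0.0362), but not without 0 min, 5 min or 20 min (0.35, adjusted p = 0.449), nor without the set 1 array of 5 min (limma adjusted p = 0.0717). Whether its probe lies inside the deleted stretch is not known here. Its relative YHP1 was higher by 0.38 ± 0.12 (SE, limma adjusted p = 0.0295), a call lost without 0, 5 or 20 min or the set 1 array of 15 min (limma adjusted p = 0.0613, 0.114, 0.37 and 0.103). MCM1, the partner of Yox1, had a difference of 0.13 ± 0.11 (limma adjusted p = 0.411), which became -0.04 without the set 2 array of 15 min. The a-specific genes MFA1 and STE2 were above the reference on the arrest arrays, at 3.27 to 4.38 and 0.62 to 2.16. Of the alpha-specific genes, which mark the opposite mating type, MF(ALPHA)1 lacked values at 0 and 5 min. The arrest means of STE3, SAG1 and MF(ALPHA)2 were -0.28, 0.02 and 0.41, and 0 of these 3 passed (limma unadjusted p = 0.136, 0.251 and 0.336).

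From arrest to 15 and 20 min, 928 of 6043 genes tested rose and 931 fell. These are 15.4% and 15.4% of the genes, by limma at a Benjamini-Hochberg adjusted p under 0.05, with the spread taken from neighbouring time points over the whole course. The background is therefore high, and each list count below is to be read against it. The median size was 0.72 on the log2 scale for genes that rose and 0.51 for those that fell. A size over 1 was reached by 281 rises and 77 falls, a size over 2 by 55 and 25, and a size over 3 by 10 each. With the spread from the 4 time points alone, 214 genes rose (3.54%) and 70 fell (1.16%), and without 20 min 497 rose and 383 fell. Keeping 25, 40 and 55 min in the spread gave 319 rises and 228 falls. Among genes measured on all 8 arrays, the late arrays all lay above the arrest arrays for 10.9% and all below for 10.4%. Of the called genes measured in both sets, the sets had opposite signs for 4 of 922 that rose and 1 of 926 that fell. These counts are not an independent check, since the calls used the mean of both sets. Differences in set 1 and set 2 correlated across 6000 genes with r = 0.847. Of the genes that rose, 488 went from below the reference to above it, and of those that fell 368 went from above to below.

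**Figure D1:**
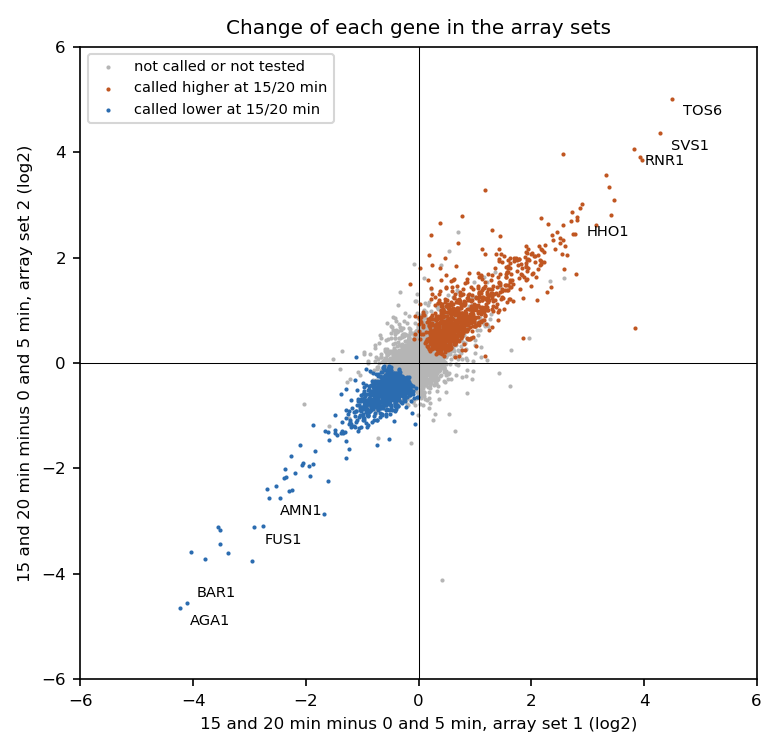
Each point is a gene, with its log2 difference of 15 and 20 min minus 0 and 5 min in array set 1 on the horizontal axis and in array set 2 on the vertical axis; colours mark genes called by limma on both sets. Called genes lie along the diagonal, with AGA1 and BAR1 at the low end and TOS6 and SVS1 at the high end.

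Genes of mating made up most of the 12 largest falls. They were AGA1, BAR1, FIG1, PRM1, ASG7, SST2, FIG2, PRM2, DSE2, FUS1, PRM3 and AMN1, of which DSE2 and AMN1 belong to daughter cell separation rather than to mating. AGA1, which anchors the a-agglutinin to the cell wall, had log2 ratios of 4.88 and 6.02 at 0 min, 3.69 and 4.62 at 5 min, 0.85 and 1.58 at 15 min, and -0.76 and -0.26 at 20 min. All late arrays lay below all arrest arrays. AGA1 fell by 4.45 ± 0.45 on the log2 scale (21.8-fold, limma adjusted p = 8.92e-06). FUS1, needed for fusion of mating cells, had 3.67 and 3.96 at 0 min, 0.18 and 0.95 at 5 min, -1.12 and -0.58 at 15 min, and -0.86 and -0.74 at 20 min. Most of its drop thus lay between 0 and 5 min, inside the arrest group. FUS1 fell by 3.02 ± 0.63 (limma adjusted p = 0.00296), and the call was lost with the spread from the 4 time points alone (adjusted p = 0.162). Without 0 min FUS1 fell by 1.39, and without 5 min it fell by 4.64.

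**Figure D2:**
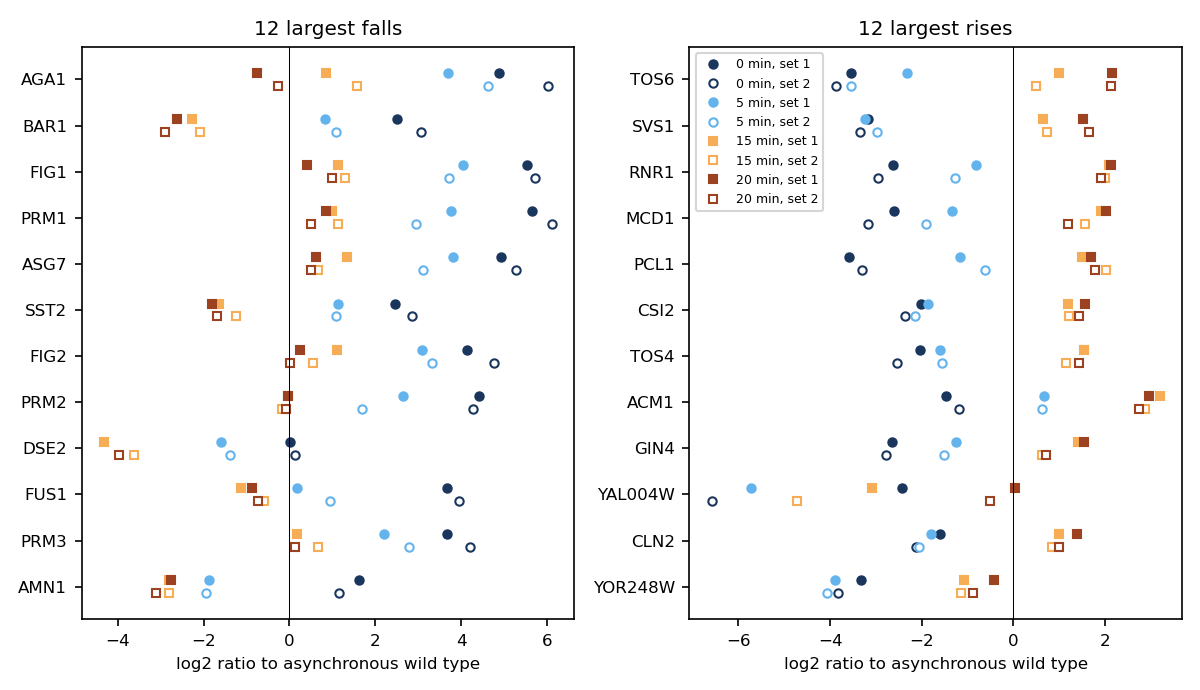
Log2 ratios to asynchronous wild type on each of the 8 arrays (circles 0 and 5 min, squares 15 and 20 min; filled array set 1, open set 2) for the 12 largest falls and the 12 largest rises. Arrest and late arrays do not overlap for most of these genes, and YAL004W is the exception among the rises.

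In the list of 21 genes of cell adhesion, fusion and karyogamy, 18 fell and 0 rose, against a background of 15.4% in each direction. Its median difference was -2.27, against -0.03 over all genes tested. With the 4 time points alone 7 fell, and with the title date as a block 10 fell. The members that fell serve successive steps of mating. For contact, FIG2, a cell wall adhesin, fell by 3.35 ± 0.29 (limma adjusted p = 2.40e-06) and the agglutinin subunit AGA2 by 2.27 ± 0.33 (adjusted p = 0.00017). At membrane fusion, FIG1 fell by 3.81 ± 0.36 and PRM1 fell by 3.75 ± 0.50 (limma adjusted p = 5.96e-06 and 9.17e-05). Without 0 min PRM1 fell by 2.49. For nuclear fusion, PRM3 fell by 2.94 ± 0.32, KAR5 by 2.00 ± 0.38 and the transcription factor KAR4 by 2.43 ± 0.59 (limma adjusted p = 1.70e-05, 0.0017 and 0.00738). The smallest fall that passed was that of PGU1, a pectinase, by 0.87 ± 0.28 (limma adjusted p = 0.0288), a call lost without 0, 15 or 20 min (adjusted p = 0.321, 0.0916 and 0.101). The 3 members without a call were VIK1, at 0.21 ± 0.18, and the kinesin KAR3 with its partner CIK1, whose courses are given below.

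Of 20 genes of the pheromone cascade, 12 fell and 2 rose, with a median difference of -0.59. With the 4 time points alone 2 fell, and without 0 min or without 20 min 7 fell. Negative regulators and the receptor led the falls. BAR1, the secreted protease that degrades alpha factor, had 2.52 and 3.06 at 0 min, 0.83 and 1.08 at 5 min, -2.26 and -2.08 at 15 min, and -2.62 and -2.90 at 20 min. SST2, which speeds GTP hydrolysis by Gpa1, had 2.45 and 2.86 at 0 min, 1.12 and 1.09 at 5 min, -1.65 and -1.25 at 15 min, and -1.81 and -1.69 at 20 min. In both genes the late arrays lay below the reference and the arrest arrays above it. BAR1 fell by 4.34 ± 0.43 and SST2 by 3.48 ± 0.31 (limma adjusted p = 7.78e-06 and 3.85e-06). STE2, the alpha factor receptor, fell by 2.14 ± 0.29, the kinase FUS3 by 1.89 ± 0.38, AFR1 by 1.35 ± 0.25 and the phosphatase MSG5 by 0.95 ± 0.29 (limma adjusted p = 0.000111, 0.00214, 0.00121 and 0.0245). Of the G protein genes, GPA1 fell by 0.78 ± 0.23, STE4 by 0.70 ± 0.14 and STE18 by 0.43 ± 0.12 (limma adjusted p = 0.0212, 0.00227 and 0.0135). The call of GPA1 was lost without 0 or 20 min (adjusted p = 0.233 and 0.235), and that of MSG5 without 0, 15 or 20 min (0.263, 0.0628 and 0.116) or the set 2 array of 5 min (0.0652). STE18 was not called without 5 or 20 min (0.0988 and 0.184), the set 1 array of 0 min (0.136) or the set 2 array of 15 min (0.084).

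The kinases and Ste12 itself mostly did not pass. STE11 was at -0.23 ± 0.10, STE20 at -0.25 ± 0.15, KSS1 at 0.21 ± 0.17 and STE12 at -0.50 ± 0.27 (limma adjusted p = 0.104, 0.215, 0.38 and 0.171). For 3 of these the result turned on the arrest time point used. Without 5 min STE12 passed as lower, at -1.04, and STE20 at -0.55 (limma adjusted p = 0.00254 and 0.00406), whereas without 0 min both were at 0.04. KSS1 passed as higher without 0 min, at 0.54 (adjusted p = 0.0211), and was at -0.11 without 5 min. STE12 also passed as lower without the set 1 array of 5 min (0.00733) or the set 2 array of 20 min (0.0497, both adjusted p). The 2 members that rose were STE7, by 0.41 ± 0.13, and the Ste12 inhibitor DIG2, by 0.37 ± 0.10 (limma adjusted p = 0.0323 and 0.0153). Both calls were lost without 5 min (adjusted p = 0.104 and 0.114) and without 20 min (0.293 and 0.121), and that of STE7 without 0 min (0.0796). DIG1, the other Ste12 inhibitor of the list, was called lower, at -0.68, but not without 0 min (limma adjusted p = 0.0645). STE5 was also called lower, at -0.5, but not without 0 min, 20 min or the set 1 array of 15 min (limma adjusted p = 0.0709, 0.0904 and 0.059). FAR1, which arrests cells before Start, had 1.44 and 1.66 at 0 min, -1.25 and -1.31 at 5 min, -2.08 and -1.09 at 15 min, and -2.27 and -2.08 at 20 min. The arrays of 0 min stood above the reference and all others below it. FAR1 fell by 2.01 ± 0.57 (limma adjusted p = 0.0168), but by 0.60 without 0 min (adjusted p = 0.0815) and by 1.72 without 20 min (adjusted p = 0.132), where it was not called.

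Genes specific to a cells fell too, 8 of 8 in the list, with a median of -2.20. With the 4 time points alone 3 fell. BAR1, ASG7, AGA2 and STE2 are also members of the mating lists above. The others were MFA1 and MFA2, which encode the a-factor pheromone, its exporter STE6 and the processing protease AXL1. MFA1 had 3.27 and 4.14 at 0 min, 3.58 and 4.38 at 5 min, 1.87 and 2.50 at 15 min, and 0.48 and 1.21 at 20 min. It stayed above the reference on all 8 arrays, and the late arrays lay below the arrest arrays. MFA1 fell by 2.33 ± 0.32, MFA2 by 2.04 ± 0.19, STE6 by 0.77 ± 0.18 and AXL1 by 0.53 ± 0.13 (limma adjusted p = 0.000108, 6.15e-06, 0.00519 and 0.00833). For STE6 the call was lost without 0 min and without 20 min (adjusted p = 0.0556 and 0.0605), as was that of AXL1 (0.0815 and 0.104), which was also lost without the set 2 array of 5 min (0.124). Whether fewer cells held these transcripts or each cell held less cannot be told apart in these bulk samples.

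**Figure D3:**
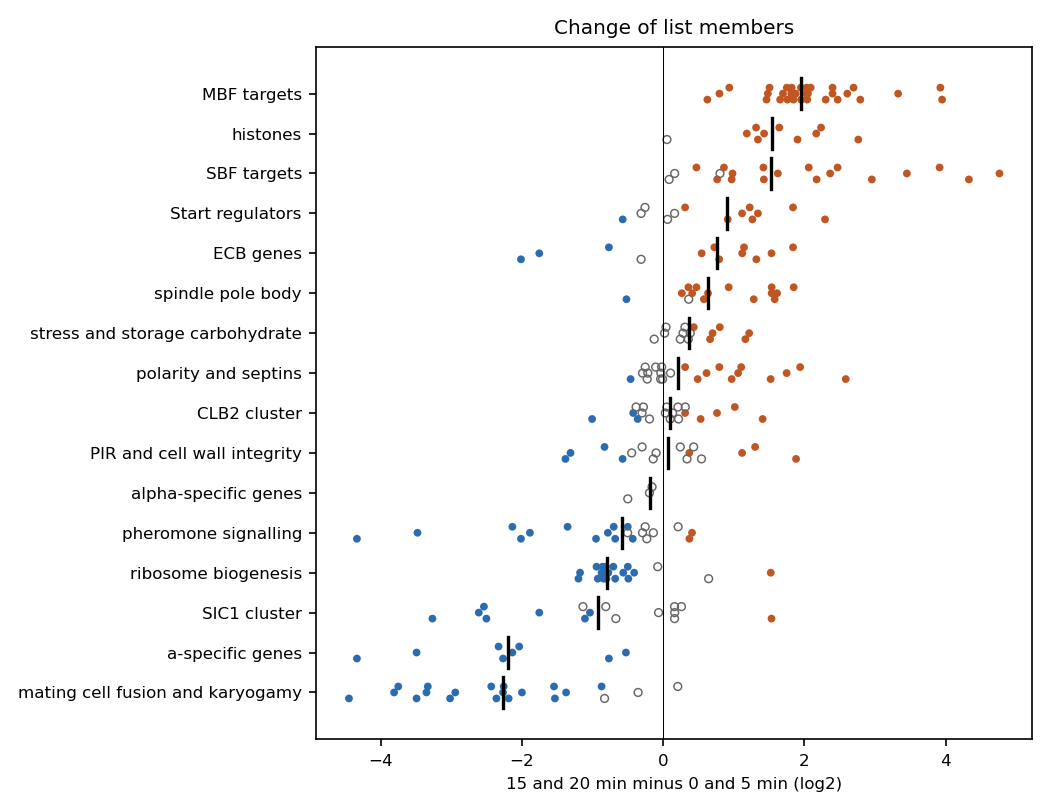
Log2 difference of 15 and 20 min minus 0 and 5 min for each tested member of the 16 lists; filled points passed limma at an adjusted p under 0.05, open circles did not, and the black bar is the list median. Mating lists lie to the left and MBF, SBF and histone lists to the right, with medians from -2.27 to 1.95.

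The transcripts of mating did not decline at 1 pace. Of 34 genes that fell in the 3 mating lists, 17 had covered over 50% of the way from their 0 min level to the mean of 15 and 20 min by 5 min, and 30 by 10 min. The medians were 49.9% at 5 min and 78.9% at 10 min. Over all 77 falls larger than 1, mating genes among them, the medians were 38.5% and 79.5%. FUS1 had covered 70% by 5 min and 94.6% by 10 min, and PRM1 50.4% and 82.6%. AGA1 stood at 25.5% and 44.6%, and AGA2 at 18.3% and 36.6%. From 0 to 5 min AGA2 fell in set 1 (3.6 to 2.3) but rose in set 2 (3.6 to 4.0). MFA1 was slightly above its 0 min level at 5 min and had covered 22.8% by 10 min. The measure uses the 0 min arrays as its start, so it describes the course and carries no test.

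**Figure D4:**
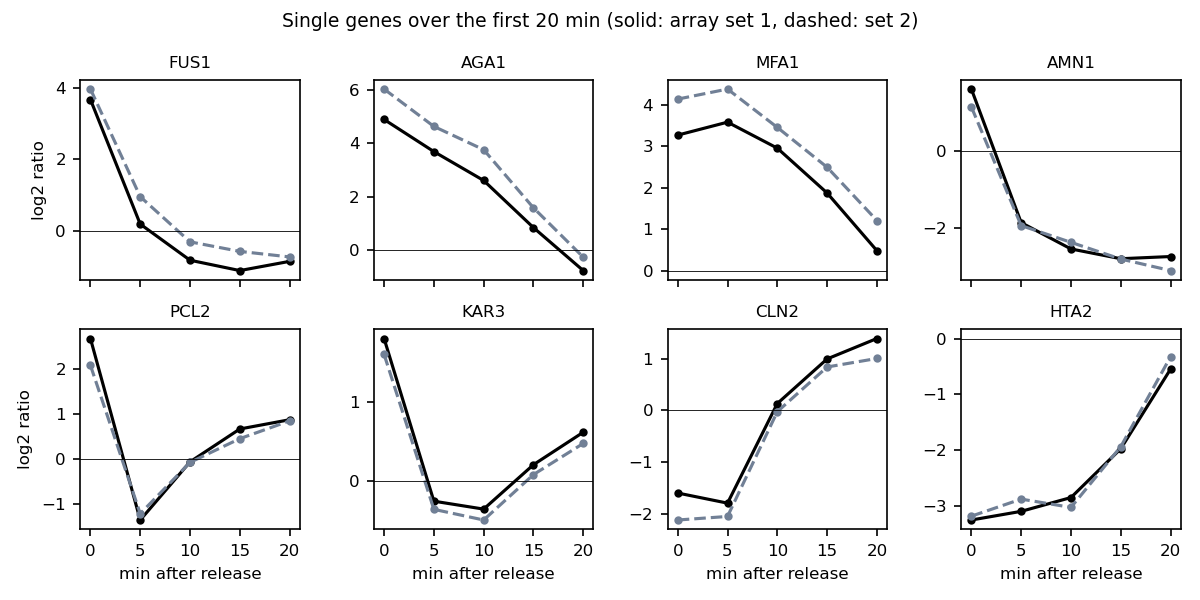
Log2 ratios to asynchronous wild type at 0, 5, 10, 15 and 20 min for 8 genes, in array set 1 (solid) and array set 2 (dashed). FUS1 and AMN1 drop by 5 min, AGA1 and MFA1 decline over the whole span, PCL2 and KAR3 fall and rise again, and CLN2 and HTA2 rise late.

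SBF targets rose in 17 of 20 cases and fell in 0, with a median of 1.52. The counts were 12 on the 4 time points alone, 11 with 25, 40 and 55 min in the spread, and 10 against a fold change of 1.5. The G1 cyclin CLN2, which drives Start, had -1.60 and -2.13 at 0 min, -1.80 and -2.06 at 5 min, 1.00 and 0.84 at 15 min, and 1.39 and 1.00 at 20 min. The arrest arrays sat below the reference and the late arrays at or above 0.84. CLN2 rose by 2.95 ± 0.23 (7.75-fold) and its partner CLN1 by 2.47 ± 0.16 (limma adjusted p = 1.24e-06 and 3.36e-07). PCL1, a cyclin of the kinase Pho85, had -3.59 and -3.31 at 0 min, -1.17 and -0.61 at 5 min, 1.49 and 2.01 at 15 min, and 1.69 and 1.78 at 20 min. It had already risen at 5 min in both sets, where CLN2 had not. PCL1 rose by 3.91 ± 0.52 over the comparison (limma adjusted p = 9.26e-05, but 0.071 with the 4 time points alone).

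The 2 widest rises of the list were those of TOS6 and SVS1. TOS6, which encodes a cell wall mannoprotein, had -3.55 and -3.87 at 0 min, -2.33 and -3.55 at 5 min, 0.99 and 0.49 at 15 min, and 2.15 and 2.12 at 20 min. SVS1, a cell wall gene, had -3.18 and -3.36 at 0 min, -3.24 and -2.98 at 5 min, 0.65 and 0.73 at 15 min, and 1.51 and 1.66 at 20 min. In both genes 20 min exceeded 15 min in both sets. TOS6 rose by 4.76 ± 0.38 (27.1-fold) and SVS1 by 4.33 ± 0.26 (20.1-fold), with limma adjusted p of 1.48e-06 and 2.28e-07. Among enzymes of the wall, the mannosyltransferase MNN1 rose by 2.17 ± 0.24, the glucan remodelling genes CRH1 and GAS1 by 2.06 ± 0.15 and 1.62 ± 0.19, and the glucan synthase FKS1 by 0.98 ± 0.12 (limma adjusted p = 1.70e-05, 7.99e-07, 2.56e-05 and 3.86e-05). SWE1, the kinase that inhibits Cdc28, rose by 2.36 ± 0.16 (limma adjusted p = 4.03e-07), and CSI2 by 3.45 ± 0.22 (adjusted p = 2.28e-07). The glucanase gene EXG1 was at 0.08 ± 0.15, with the sign turned without 5 min or without the set 2 array of 15 min (-0.04 each). HO, the mating-type endonuclease, was at 0.80 ± 0.34 (limma adjusted p = 0.0927) and passed without 0 min, at 1.29 (adjusted p = 0.0212), and without the set 1 array of 0 min, at 0.93 (adjusted p = 0.0364).

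MBF targets moved together: 31 of 31 tested members rose, with a median of 1.95, and CLB5, which had no value at 0 min, was not tested. On the 4 time points alone 27 rose. RNR1, the large subunit of ribonucleotide reductase, had -2.62 and -2.96 at 0 min, -0.82 and -1.27 at 5 min, 2.08 and 2.00 at 15 min, and 2.14 and 1.91 at 20 min. MCD1, a cohesin subunit, had -2.60 and -3.16 at 0 min, -1.34 and -1.90 at 5 min, 1.92 and 1.57 at 15 min, and 2.01 and 1.20 at 20 min. The arrest arrays of both genes lay below the reference, those of 5 min above those of 0 min, and the late arrays above the reference. RNR1 rose by 3.95 ± 0.43 (15.4-fold) and MCD1 by 3.93 ± 0.30 (15.2-fold), with limma adjusted p of 1.54e-05 and 1.14e-06.

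Among polymerase genes, POL1 rose by 2.79 ± 0.23, POL2 by 2.05 ± 0.16 and the primase gene PRI1, the smallest rise of the list, by 0.63 ± 0.10 (limma adjusted p = 1.81e-06, 1.39e-06 and 0.000286). The sliding clamp POL30 rose by 2.40 ± 0.34, the flap nuclease RAD27 by 2.47 ± 0.24 and the single-strand binding subunit RFA1 by 2.04 ± 0.21 (limma adjusted p = 0.000168, 6.61e-06 and 8.97e-06). CDC21, which makes thymidylate, rose by 2.70 ± 0.21, the mismatch repair gene MSH6 by 2.40 ± 0.15 and the S phase cyclin CLB6 by 2.61 ± 0.22 (limma adjusted p = 9.85e-07, 2.28e-07 and 2.48e-06). TOS4, a forkhead-domain protein, rose by 3.33 ± 0.21 (limma adjusted p = 2.28e-07) with 1 late array missing. As a list, MBF targets had already moved at 5 min: 30 of 31 members were higher at 5 than at 0 min in both sets, against 34.7% of all genes. Among SBF targets this held for 7 of 19, and 5 of 19 were lower, against 35.3% of all genes.

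**Figure D5:**
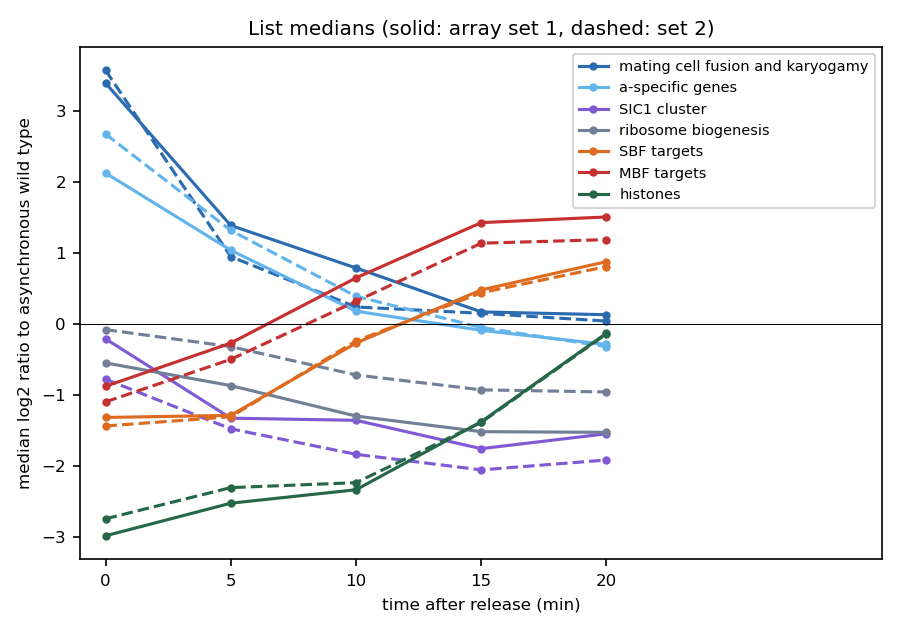
Median log2 ratio to asynchronous wild type of 7 gene lists at 0, 5, 10, 15 and 20 min, in array set 1 (solid) and array set 2 (dashed). MBF targets rise from 0 min on, SBF targets from 5 min on and histones mainly after 10 min, while the mating lists decline.

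The remaining genes among the 12 largest rises were ACM1, GIN4, YAL004W and YOR248W. ACM1, an inhibitor of the anaphase-promoting complex with Cdh1, rose by 3.28 ± 0.42, and GIN4, a kinase of the bud neck, by 3.12 ± 0.31 (limma adjusted p = 6.37e-05 and 8.17e-06). YOR248W, which the table of assembly R64 does not name, rose by 2.90 ± 0.18 (limma adjusted p = 2.28e-07). YAL004W, also not in that table, ranged from -6.58 to -2.43 on the 3 arrest arrays with a value and from -4.71 to 0.04 on the late arrays. Its groups overlapped, and its call (limma adjusted p = 0.0268) was lost without 5 min, without 20 min, and without the set 1 array of 15 min or the set 2 array of 0 min (adjusted p = 0.147, 0.383, 0.082 and 0.21).

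Of 13 Start regulators, 8 rose and 1 fell, with a median of 0.91, and 5 rose and 0 fell on the 4 time points alone. SWI4, the DNA-binding subunit of SBF, had -0.77 and -1.86 at 0 min, -0.18 and -0.81 at 5 min, 1.29 and 0.14 at 15 min, and 1.61 and 0.69 at 20 min. It lay below the reference on the arrest arrays and above it on the late arrays in each set. SWI4 rose by 1.84 ± 0.25 and the shared subunit SWI6 by 0.91 ± 0.10, whereas MBP1, the MBF subunit, was at -0.26 ± 0.10 (limma adjusted p = 0.000109, 1.32e-05 and 0.0573). MBP1 passed as lower without 20 min (0.0461), the set 1 array of 20 min (0.022) or the set 2 array of 0 min (0.0273, all adjusted p). MSA2 and MSA1, coactivators of SBF and MBF, rose by 2.29 ± 0.44 and 1.12 ± 0.16 (limma adjusted p = 0.00183 and 0.000138). Without 0 min MSA2 rose by 1.30. Inhibitors rose as well: WHI5, which binds SBF before Start, by 1.26 ± 0.25 with 1 late array missing, and NRM1, which binds MBF after Start, by 1.34 ± 0.12 (limma adjusted p = 0.00205 and 3.97e-06).

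The upstream cyclin CLN3 was at -0.31 ± 0.14 (limma adjusted p = 0.115), and passed as lower without 5 min (0.00727), without the set 2 array of 5 min (0.00406) and without the set 1 array of 15 min (0.0413, all adjusted p). BCK2, which acts beside CLN3, fell by 0.57 ± 0.17 (limma adjusted p = 0.0189), more than in set 1 (-0.20) or set 2 (-0.52) alone, since the set 1 array of 20 min is missing. Without 20 min BCK2 was at -0.28 (adjusted p = 0.278), and its call was also lost without 0 min, 5 min or the set 2 array of 15 min (adjusted p = 0.0556, 0.0684 and 0.12). CDC28, the kinase of the cycle, was at 0.06 ± 0.11, and its inhibitor SIC1 at 0.16 ± 0.21 (limma adjusted p = 0.697 and 0.595).

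Genes with early cell cycle box (ECB) promoters, on which Yox1 acts in wild-type cells, split. Of 12 members 8 rose and 3 fell, with a median of 0.76, and 5 rose without 15 min. On the 4 time points alone 4 rose and 0 fell. Those that rose were SWI4, the replication licensing factor CDC6 and the 6 helicase subunits MCM2 to MCM7, with rises from 0.54 for MCM2 to 1.32 for MCM7 (limma adjusted p = 0.00613 and 0.00011). MCM2 was not called without 15 min (adjusted p = 0.0606). Those that fell were FAR1, STE6 and TEC1, the last a transcription factor that pairs with Ste12, by 1.75 ± 0.23 (limma adjusted p = 8.38e-05). FAR1 is also counted in the pheromone cascade list and STE6 in the list of a-specific genes, so these falls are not additional. Likewise, SWI4 is also counted among the Start regulators and CDC6 in the SIC1 cluster list. FAR1 and STE6 were not called without 0 min or without 20 min, which left 1 fall. CDC6 had -1.52 and -1.27 at 0 min, 0.58 and 0.94 at 5 min, 1.46 and 1.39 at 15 min, and 0.85 and 1.17 at 20 min. It had crossed from below to above the reference by 5 min in both sets, so the arrest group is not uniform for it. CDC6 rose by 1.53 ± 0.44 (limma adjusted p = 0.0177), but not without 0, 15 or 20 min (adjusted p = 0.107, 0.0831 and 0.0512). Its difference was 0.46 without 0 min and 2.61 without 5 min.

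Histone genes, expressed in S phase, gained most of their rise after 10 min. The median of the 10 genes on the array sets was -2.99 and -2.75 at 0 min, -2.53 and -2.31 at 5 min, -2.34 and -2.24 at 10 min, -1.38 and -1.39 at 15 min, and -0.13 and -0.14 at 20 min. Of the 10, 9 rose and 0 fell, with 1 rise on the 4 time points alone. HTA2, an H2A gene, had -3.25 and -3.18 at 0 min, -3.09 and -2.87 at 5 min, -1.97 and -1.94 at 15 min, and -0.55 and -0.33 at 20 min. The 2 arrays of 20 min stood well above those of 15 min, so the late group is not uniform for histones. From 15 to 20 min the 9 genes gained between 0.83 and 1.65. HTA2 rose by 1.90 ± 0.38 and HHF2, an H4 gene, by 2.24 ± 0.35 (limma adjusted p = 0.00218 and 0.000346). Without 20 min HTA2 rose by 1.14. The linker histone gene HHO1 had -3.02 and -2.82 at 0 min, -2.81 and -2.82 at 5 min, -0.51 and -0.68 at 15 min, and 0.29 and 0.49 at 20 min. It rose by 2.76 ± 0.24 (limma adjusted p = 2.56e-06), the call that held on the 4 time points alone. HTZ1, the H2A variant that replaces H2A outside S phase, was at 0.05 ± 0.12 (limma adjusted p = 0.762), with the sign turned without the set 1 array of 15 min. The 2 copies of a core histone gene differ little, and 1 probe may read both. The label of late G1 thus rests on SBF and MBF targets above the reference, and at 20 min histones had nearly reached it.

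Bud site and polarity genes rose in 11 of 22 tested cases and fell in 1, with a median of 0.21, and RAX1 had no value at 20 min. On the 4 time points alone 6 rose and 0 fell. AXL2, an axial landmark protein, had -1.57 and -1.98 at 0 min, -1.15 and -1.45 at 5 min, 1.06 and 0.82 at 15 min, and 1.33 and 0.98 at 20 min. The groups did not overlap. AXL2 rose by 2.58 ± 0.18, RAX2 by 1.94 ± 0.16, the GTPase RSR1 by 1.75 ± 0.13 and the membrane protein MSB2 by 1.52 ± 0.21 (limma adjusted p = 4.35e-07, 1.39e-06, 8.04e-07 and 0.000113). Of the polarisome, SPA2 rose by 1.10 ± 0.14 and PEA2 by 0.79 ± 0.12 (limma adjusted p = 7.48e-05 and 0.000238), while the formin BNI1 was at -0.23 ± 0.13 (adjusted p = 0.201). CDC42, the GTPase that sets polarity, fell by 0.46 ± 0.10 (limma adjusted p = 0.00424), and the scaffold BEM1 was at -0.01 ± 0.08 (adjusted p = 0.947), turning to between 0.01 and 0.10 without 5 or 20 min or any 1 of 4 arrays. Of the septins CDC3 rose by 0.49 ± 0.13 (limma adjusted p = 0.0143), but not without 0 or 20 min or either set 2 arrest array (adjusted p = 0.0576, 0.109, 0.117 and 0.0641), and CDC10, CDC11, CDC12 and SHS1 lay between -0.11 and 0.10 without a call. The falls numbered 2 or 3 in place of 1 when 0, 5 or 15 min, an array of 0 or 5 min of set 1 or the set 2 array of 15 min was left out.

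Spindle pole body genes, which encode the yeast centrosome, rose in 13 of 15 cases and fell in 1, with a median of 0.64 and 6 rises on the 4 time points alone. NUD1, a scaffold of the outer plaque, rose by 1.85 ± 0.34 (limma adjusted p = 0.00121). The gamma-tubulin gene TUB4 and SPC97, a member of its complex, rose by 1.61 ± 0.16 and 1.58 ± 0.15 (limma adjusted p = 8.66e-06 and 6.51e-06), where SPC97 has 1 arrest value on the limit of the scale and set to missing. SPC29 rose by 1.54 ± 0.11 and SPC42, a core component, by 1.28 ± 0.08 (limma adjusted p = 7.75e-07 and 3.36e-07). The centrin gene CDC31 fell by 0.52 ± 0.13 (limma adjusted p = 0.00701), but not without 20 min or either set 2 arrest array (adjusted p = 0.0841, 0.0644 and 0.085). MPS2 was at 0.36 ± 0.26 (limma adjusted p = 0.325). Calls of smaller rises were lost too. SPC110, at 0.26, was not called when any 1 of the 4 time points was left out. NDC1, at 0.36, was not called without 5 or 20 min, and CNM67, at 0.41, not without 20 min (limma adjusted p = 0.127, 0.129 and 0.108).

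Genes of the SIC1 cluster, which are made as cells leave mitosis and include daughter cell separation genes, fell in 7 of 16 cases and rose in 1, CDC6, with a median of -0.92. The counts were 1 fall on the 4 time points alone, 4 without 0 min and 3 without 20 min, and CDC6 was lost without 0, 15 or 20 min. AMN1, a daughter-cell inhibitor of mitotic exit, had 1.62 and 1.15 at 0 min, -1.87 and -1.94 at 5 min, -2.81 and -2.82 at 15 min, and -2.75 and -3.12 at 20 min. DSE2, a daughter-specific cell wall gene, had 0.00 and 0.14 at 0 min, -1.59 and -1.38 at 5 min, -4.32 and -3.62 at 15 min, and -3.98 in set 2 with no value in set 1 at 20 min. AMN1 was above the reference at 0 min and far below it from 5 min on, and DSE2 was near the reference at 0 min and fell stepwise. DSE2 fell by 3.27 ± 0.46 and AMN1 by 2.61 ± 0.67 (limma adjusted p = 0.000149 and 0.0101), the latter not called without 20 min (0.0643). AMN1 fell by 0.97 without 0 min and fell by 4.26 without 5 min. DSE1 fell by 2.54 ± 0.44 (limma adjusted p = 0.000764), and without 0 min it fell by 1.58. SCW11, a glucanase-like wall gene, fell by 2.50 ± 0.71 (limma adjusted p = 0.0173), but by 0.78 without 0 min (adjusted p = 0.12) and without a call also when 15 or 20 min was left out (adjusted p = 0.0579 and 0.079). The chitinase CTS1 was at -0.07 ± 0.11 and the HO repressor ASH1 at 0.16 ± 0.30 (limma adjusted p = 0.696 and 0.714), and each changed sign without 0 or 15 min.

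The CLB2 cluster of G2 and M genes had 5 rises and 3 falls among 19, with a median of 0.10, and 2 rises and 0 falls on the 4 time points alone. CLB1 and CLB2, the mitotic cyclins, stayed below the reference on all 8 arrays. CLB1 rose by 1.01 ± 0.15 and CLB2 by 0.76 ± 0.20 (limma adjusted p = 0.000183 and 0.0111), CLB1 not without the set 2 array of 20 min (adjusted p = 0.0667) and CLB2 not without 0 or 15 min (0.0607 and 0.0601). HST3, a histone deacetylase, rose by 1.41 ± 0.21 (limma adjusted p = 0.000204) with neither late array of set 2 measured. Set 1 alone gave 0.98. The other rises were MYO1 and BUD8, by 0.53 ± 0.12 and 0.31 ± 0.11, and the falls were SPO12, ASE1 and TEM1, by 1.01, 0.42 and 0.36 (limma adjusted p = 0.00449, 0.0442, 0.0127, 0.0266 and 0.0209). The calls of MYO1 (without 20 min), ASE1 (without any 1 time point) and BUD8 (without 5, 15 or 20 min) were lost too, and those of BUD8, ASE1 and TEM1 also without single arrays. Without 0 min or without 20 min these falls were not called, and without 15 or 20 min or either set 1 late array 3 rises were.

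Outside the cell cycle, ribosome biogenesis genes fell in 17 of 20 cases, with a median of -0.79, and 7 fell on the 4 time points alone. NSR1, a nucleolar protein of rRNA processing, had -0.67 and 0.21 at 0 min, -0.89 and -0.15 at 5 min, -2.03 and -1.07 at 15 min, and -2.0 and -1.20 at 20 min. The late arrays lay below the arrest arrays in each set, and set 1 ran lower than set 2 throughout. NSR1 fell by 1.20 ± 0.16, the RNA helicase MTR4 by 1.18 ± 0.13 and EBP2 by 0.94 ± 0.12 (limma adjusted p = 0.00011, 1.56e-05 and 7.48e-05). Of the core proteins of box C/D particles, NOP58 rose by 1.52 ± 0.49, NOP56 was at 0.64 ± 0.30 and NOP1 at -0.08 ± 0.14 (limma adjusted p = 0.0307, 0.121 and 0.705). NOP58 ranged from -5.30 to -1.30 on the arrest arrays, and its difference was 0.38 in set 1 and 2.67 in set 2. Its call was lost without 5 min, 20 min, either set 2 arrest array or the set 1 array of 15 min (adjusted p = 0.307, 0.313, 0.304, 0.11 and 0.0581). NOP56 passed as higher without 0 min and without its set 1 array (adjusted p = 0.00743 and 0.0102), and NOP1 turned to 0.03 without 0 min.

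Cell wall integrity genes had 4 rises and 4 falls of 16, with a median of 0.07, against a background of 15.4% in each direction. These counts are not read as a trait of the list. On the 4 time points alone there were 1 rise and 2 falls. CIS3, a PIR wall protein, rose by 1.88 ± 0.20 and the wall protein SED1 by 1.30 ± 0.26 (limma adjusted p = 1.61e-05 and 0.00214). HSP150 and the glucan synthase GSC2 rose by 1.12 ± 0.39 and 0.37 ± 0.09 (limma adjusted p = 0.0452 and 0.00803), and both calls were lost without 20 min (0.321 and 0.0576), without 5 min (0.0586 and 0.0671) and without any 1 of 3 arrays: the set 1 array of 15 min and the set 2 arrays of 0 and 5 min. HSP150 was also lost without 0 min (0.194) and without the set 1 array of 20 min. The mannosyltransferase gene KTR2 fell by 1.38 ± 0.17 and the chitin synthase CHS1 by 1.31 ± 0.24 (limma adjusted p = 4.91e-05 and 0.00127). The kinase SLT2 and its target factor RLM1 fell by 0.83 ± 0.17 and 0.57 ± 0.13 (limma adjusted p = 0.00232 and 0.00517), the latter not without 20 min (0.0783). Of 14 stress and storage genes tested, 6 rose and 0 fell (1 rise on the 4 time points alone), and HSP12 and DDR2 were not tested. HXK1, a hexokinase, rose by 1.22 ± 0.30 and the chaperone HSP42 by 1.16 ± 0.21 (limma adjusted p = 0.00813 and 0.00094), HXK1 not without 0 or 20 min (0.0778 and 0.0671). Without 0 min HSP42 rose by 0.73. TSL1, of trehalose synthesis, rose by 0.70 ± 0.20 and HSP26 by 0.80 ± 0.29 (limma adjusted p = 0.018 and 0.049). The call of HSP26 was lost whichever time point was left out, and that of TSL1 without 0 or 15 min or the set 1 array of 20 min or the set 2 array of 5 min. The count of rises in the list was 2 or 3 without 0, 15 or 20 min or the set 2 array of 5 min.

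The first 5 min held changes of their own, which the grouping of 0 with 5 min hides. These genes were picked after their values were seen and their course from 0 to 5 min is given as values, with no test. Between 0 and 5 min 18 of the tested genes dropped by more than 2 on the log2 scale as a mean of both sets, with a fall of any size in each. By the same rule 8 gained more than 2. Some of these means come largely from 1 array. At 5 min DDI3 was at -5.22 in set 1 and -0.45 in set 2, and YAP7 at -3.72 and -0.67. Among the gains, DAK2 was at -0.77 in set 1 and -3.36 in set 2 at 0 min. Of the 20 steepest drops, 11 were genes of the 3 mating lists and 4 of the SIC1 cluster list. PCL2, a Pho85 cyclin gene known to respond to both SBF and pheromone, had 2.69 and 2.09 at 0 min, -1.35 and -1.21 at 5 min, 0.68 and 0.46 at 15 min, and 0.88 and 0.85 at 20 min. It went from above the reference at 0 min to below it at 5 min and back above it at 15 min in both sets. Its difference was 0.16 ± 0.73 over the whole comparison, 2.00 without 0 min and -1.67 without 5 min.

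The kinesin gene KAR3 and CIK1, which encodes its light chain, also dropped between 0 and 5 min. KAR3 had 1.81 and 1.61 at 0 min, -0.26 and -0.36 at 5 min, 0.20 and 0.08 at 15 min, and 0.62 and 0.48 at 20 min, and CIK1 had 2.23 and 2.51 at 0 min, -0.70 and -0.36 at 5 min, -0.15 and 0.09 at 15 min, and 0.17 and 0.24 at 20 min. Both were high at 0 min, low at 5 min and higher again at 20 min in each set. Taken over both arrest times, KAR3 was at -0.36 ± 0.42 and CIK1 at -0.83 ± 0.56 (limma adjusted p = 0.55 and 0.287). Without 0 min the differences were 0.66 and 0.62, and without 5 min they were -1.37 and -2.28. GIC2, an effector of Cdc42 among the SBF targets, had 0.23 and 0.25 at 0 min, -2.27 in set 2 with no value in set 1 at 5 min, 0.09 and 0.43 at 15 min, and 0.56 in set 2 with no value in set 1 at 20 min. The single array of 5 min was the only one far below the reference. GIC2 passed as higher by 1.42 ± 0.50 (limma adjusted p = 0.0465), but its difference in set 1, which lacks 5 and 20 min, was -0.14. Its call was lost without 5, 15 or 20 min (adjusted p = 0.597, 0.077 and 0.22) and without the set 2 array of 0 or 15 min (0.0534 and 0.0573).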

How the data were processed

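Transcript levels were measured on 50 arrays of 2 colours, 1 for each of 25 time points in each of 2 array sets. The table deposited by the authors holds 1 log10 ratio per open reading frame and array. Cy5 holds the yox1 deletion time point and Cy3 asynchronous wild type, per the labels. The ratio was read as Cy5 over Cy3 from these dyes, since no source states its direction, and the log10 base was inferred from deposited values that end at exactly -2 and 2. The scanner, background correction and normalization were not given in the sources used here. Dyes were not swapped, so a gene's dye bias enters each level and cancels in differences between times, and the reference carries no spread of its own.

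Of 6217 features, 12 controls were left out. Symbols for 5704 of 6205 open reading frames came from the locus tags of assembly R64, and 501 kept the name in the file. Ratios were converted to log2, 38 values on the limits in the 8 arrays were set to missing, array medians were set to 0, and both arrays of 1 time were averaged. Genes needed a value at 0, 5, 15 and 20 min. The contrast was fitted with limma 3.58.1 in R 4.3.3 (lmFit and eBayes), with 8 later pairs of neighbouring times entering only the spread, which gave 10 residual degrees of freedom for most genes, and Benjamini-Hochberg adjustment over 6043 genes. Neighbouring times are successive samples of a moving culture, and no label says that they came from separate cultures, so p-values measure the spread between these samples. The times 10, 25, 40, 55 and 120 min were left out of the fit, of which 25, 40 and 55 min were known to stand apart. On data simulated for this contrast over 6043 genes, 98% of 100 genes changed by 1 on the log2 scale and 100% of 100 changed by 2 were called, with 10 false calls. The simulated noise had the spread of the same later pairs that enter the fit. It held no larger movement inside a group, so these shares do not carry over to genes that moved within a group.

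Named genes were YOX1, YHP1 and MCM1, the 12 largest rises and falls of the same sign in both sets with at least 3 arrays a group, the 4 largest differences of each of 16 lists, and members behind counts of 5 or fewer. Other members were added after their values were seen, to show a list's roles. The members and lists were chosen with earlier results of these data known. Alternatives changed the spread, block, array set, centring, scaling, limits, filter and threshold, or left out an array or time point. Figures were drawn with matplotlib 3.10.9.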

Additional observations from a re-analysis of the deposited data

Results flagged for a closer look

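In 186 groups of 4 arrays, made of the 99 named genes' arrest or late arrays, 3 had 1 array whose gap to the nearest of the others exceeded Dixon's 95% critical value as a share of the group's range (ratios of 0.839, 0.869 and 0.943). Chance gives this in about 1 of 20 groups. FAR1 was at -1.09 on the set 2 array of 15 min, against -2.27 to -2.08 on the other late arrays. SIC1, whose product inhibits the S phase form of Cdc28, was at -0.60 on the same array, against -0.93 to -0.89. HHO1, the linker histone gene, was at -3.02 on the set 1 array of 0 min, against -2.82 to -2.81 on the other arrest arrays.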

How the results depend on the processing

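Of 28 alternatives, most kept the direction of the 1859 calls, and the number of calls varied widely. Alternatives that changed only the spread or the threshold leave the difference as it is, so its direction cannot change there. With the spread from the 4 time points alone, 283 of the 1859 were also called, and with 25, 40 and 55 min kept, 547. Genes that rose, 928 at first, numbered 214 on the 4 time points alone, 319 with 25, 40 and 55 min kept, 510 with the array set as replicate block and the time point as random block, 539 with the title date as a block, 481 in set 1 alone, 549 in set 2 without 20 min, 569 at an adjusted p under 0.01 and 173 against a fold change of 1.5. Genes that fell, 931 at first, numbered 70, 228, 389, 435, 548, 354, 459 and 45 in the same order, and 556 with arrays scaled to 1 spread. Leaving out 1 array or time point gave 497 to 1138 rises and 383 to 1025 falls. Without the array whose title and source name give different times, 862 genes rose and 801 fell, and 1651 of the 1859 calls held. That array, with 0 min in its source name and a later time in its title, enters only the spread. BUD8, HSP26 and STE7 were among the calls lost (limma adjusted p = 0.0547, 0.0504 and 0.0575).

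The labels give no replicate number, but both sets hold every time point. Their deviations correlated (r = 0.759, arrest against late), and with the array set as replicate block on the 8 arrays 812 genes rose and 801 fell.

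SBF rises, 17 at first, numbered 11 with 25, 40 and 55 min kept, 10 against a fold change of 1.5, and 13 to 19 without 1 array or time point. MBF rises, 31 at first, numbered 29 to 31 in that last family and at least 27 throughout. Signalling falls, 12 at first, numbered 2 on the 4 time points alone, 7 with 25, 40 and 55 min kept, 6 with both blocks, 4 with the title date as a block, 6 in set 2 without 20 min, 3 against a fold change of 1.5, and 7 to 14 without 1 array or time point. Falls in the fusion and karyogamy list, 18 at first, numbered 7 on the 4 time points alone, 10 with the title date as a block and 13 to 20 without 1 array or time point.

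Signs turned for 10 named genes without a call on all arrays, given with their range where 1 array or time point was left out. CIK1 ranged from -2.28 without 5 min to 0.62 without 0 min and KAR3 from -1.37 to 0.66, and PCL2 from -1.67 without 5 min to 2.00 without 0 min. EXG1 was at -0.03 in set 1 alone and from -0.04 (without 5 min or the set 2 array of 15 min) to 0.21. HTZ1 was at -0.12 in set 2 without 20 min and from -0.06 (without the set 1 array of 15 min) to 0.17. MCM1 was at -0.06 in set 1 alone and from -0.04 (without the set 2 array of 15 min) to 0.31, and MF(ALPHA)2 at 0.07 in set 1 alone and from -0.32 to 0.00 (without the set 2 array of 5 min). MPS2 was at -0.03 in set 2 without 20 min, NOP1 from -0.19 to 0.03 (without 0 min), and NOP56 at -0.02 in set 1 alone. Over 2728 values of 99 named genes, 2374 kept direction and call, 322 lost the call and 17 gained one. The causes were not tested. The main limit is that each group holds 2 neighbouring time points of 1 course and that levels move within a group. A call here says that a difference is large against a spread pooled from neighbouring times later in the course and from within the 2 groups. The background signal of the arrays was not analysed here, so what limits dim genes is unknown.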

Other observations

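Some genes stood higher than at 0 min in both sets at 5 min, within the arrest group. They were picked after their values were seen, and their courses carry no test. RCK1, a kinase gene of the oxidative stress response, had log2 ratios of -0.05 and -0.03 at 0 min, 2.79 and 2.37 at 5 min, 1.22 and 0.94 at 10 min, 0.65 and 0.35 at 15 min, and 0.69 and 0.99 at 20 min. Of these 5 times, 5 min was the highest in both sets. The hexose transporter genes HXT6, HXT4 and HXT2 gained 2.16, 2.02 and 1.70 from 0 to 5 min as a mean of both sets, and HXT7, nearly identical to HXT6 so that a probe may read both, gained 1.94. These transporters were still above their 0 min level at 20 min in both sets. FMP48 gained 1.90 and CIN5, a transcription factor gene of salt tolerance, 1.89, and both were lower at 10 than at 5 min in both sets. Over the comparison of 15 and 20 min with 0 and 5 min, 0 of these 7 genes passed limma at an adjusted p under 0.05, and 0 at an unadjusted p under 0.05 (adjusted p = 0.122 for FMP48, 0.156 for HXT2, 0.188 for HXT4, 0.204 for HXT6, 0.228 for HXT7, 0.409 for RCK1 and 0.707 for CIN5).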
